A study of Mus musculus with 21 samples.

Results

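Imprinted genes are genes that are expressed mainly or wholly from the copy inherited from the mother or from the copy inherited from the father. A list of 40 such genes was followed across mouse glioma stem-like cell lines, and a gene entered when its symbol in the deposited table equalled a listed symbol, which found all 40 among 54532 genes. The tumour cells were IDH1 mutant in 4 lines (PIC144-1, PIC144-3, PIC496-3 and PIC496-4) and IDH1 WT in 3 lines (PC134-0, PC308-1 and PC326-1), with 3 libraries of polyA RNA per line, 21 in all. The labels give the lines as derived from genetically engineered mouse models and give no other allele, age or treatment. All lines were grown without attachment in neural stem cell medium with EGF, bFGF and heparin at low oxygen. The labels call the libraries of a line biological replicates without saying what separates them, so they may differ only technically. Each line is 1 culture, so a genotype effect was judged over lines (n = 4 IDH1 mutant and n = 3 IDH1 WT), and lines with the same number in their name (144, 496) could share an animal, which the labels do not say.

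Imprinted genes lie in clusters, each controlled by a stretch of DNA that is methylated on one parental copy only. The methylation mark is set in the germ line and kept in the embryo by zinc finger proteins such as ZFP57 with the cofactor TRIM28 and the maintenance methyltransferase DNMT1. Many members regulate growth, with paternally expressed genes such as Igf2 promoting it and maternally expressed genes such as H19 and Cdkn1c restraining it. Several stay active in neural stem cells and the brain. The parental origin of the RNA was not measured here, and a level cannot tell 1 active copy from 2. In bulk RNA, fewer cells expressing a gene and less RNA per cell cannot be told apart.

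Libraries held 15011668 to 21966351 fragments. The neural stem and glioma markers Sox2, Nes, Olig1, Olig2 and Fabp7 were expressed in every line, and the sum over all 6 listed markers was 1093 to 2112 FPKM in IDH1 mutant lines, against 1275 to 1609 FPKM in IDH1 WT lines, while Sox10 reached at most 1.18 FPKM. FPKM are fragment counts divided by the length of the gene and the size of the library. Markers of other cell types were low: of 6 microglial markers Cd68 alone reached 0.5 FPKM, with C1qa at 0 in every library, and the summed endothelial markers were at most 0.357 FPKM in IDH1 mutant lines and 0.792 FPKM in IDH1 WT lines, with Cldn5 at 0. The summed neuron markers, mostly Tubb3, were 3.19 to 12.7 FPKM in IDH1 mutant lines, against 12.1 to 29.6 FPKM in IDH1 WT lines. The summed fibroblast, pericyte and meningeal markers were 11.2 FPKM in PIC144-1, where Dcn was at 10.3 FPKM, and at most 2.12 FPKM in the other lines. The lines PC134-0 and PC326-1 were the most alike pair across all tested genes, with a correlation of 0.983 on the log2(FPKM + 0.5) scale, against 0.956 for the next pair.

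Of the 40 imprinted genes, 24 reached 1 FPKM in their highest line, and the other 16 stayed below 0.5 FPKM in every line. The filter for testing, a line mean of at least 0.5 FPKM in at least 3 lines, was passed by 22 genes. The highest level was that of Mest, at 416 FPKM in PIC496-3. Snurf had 0 fragments in all libraries, but it lies within Snrpn on the same strand, and reads of the shared transcript may have been given to Snrpn. The heat map of all 40 genes shows 3 kinds of pattern: genes on in every line, genes off in every line, and genes on in some lines and off or nearly off in others.

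**Figure D1:**
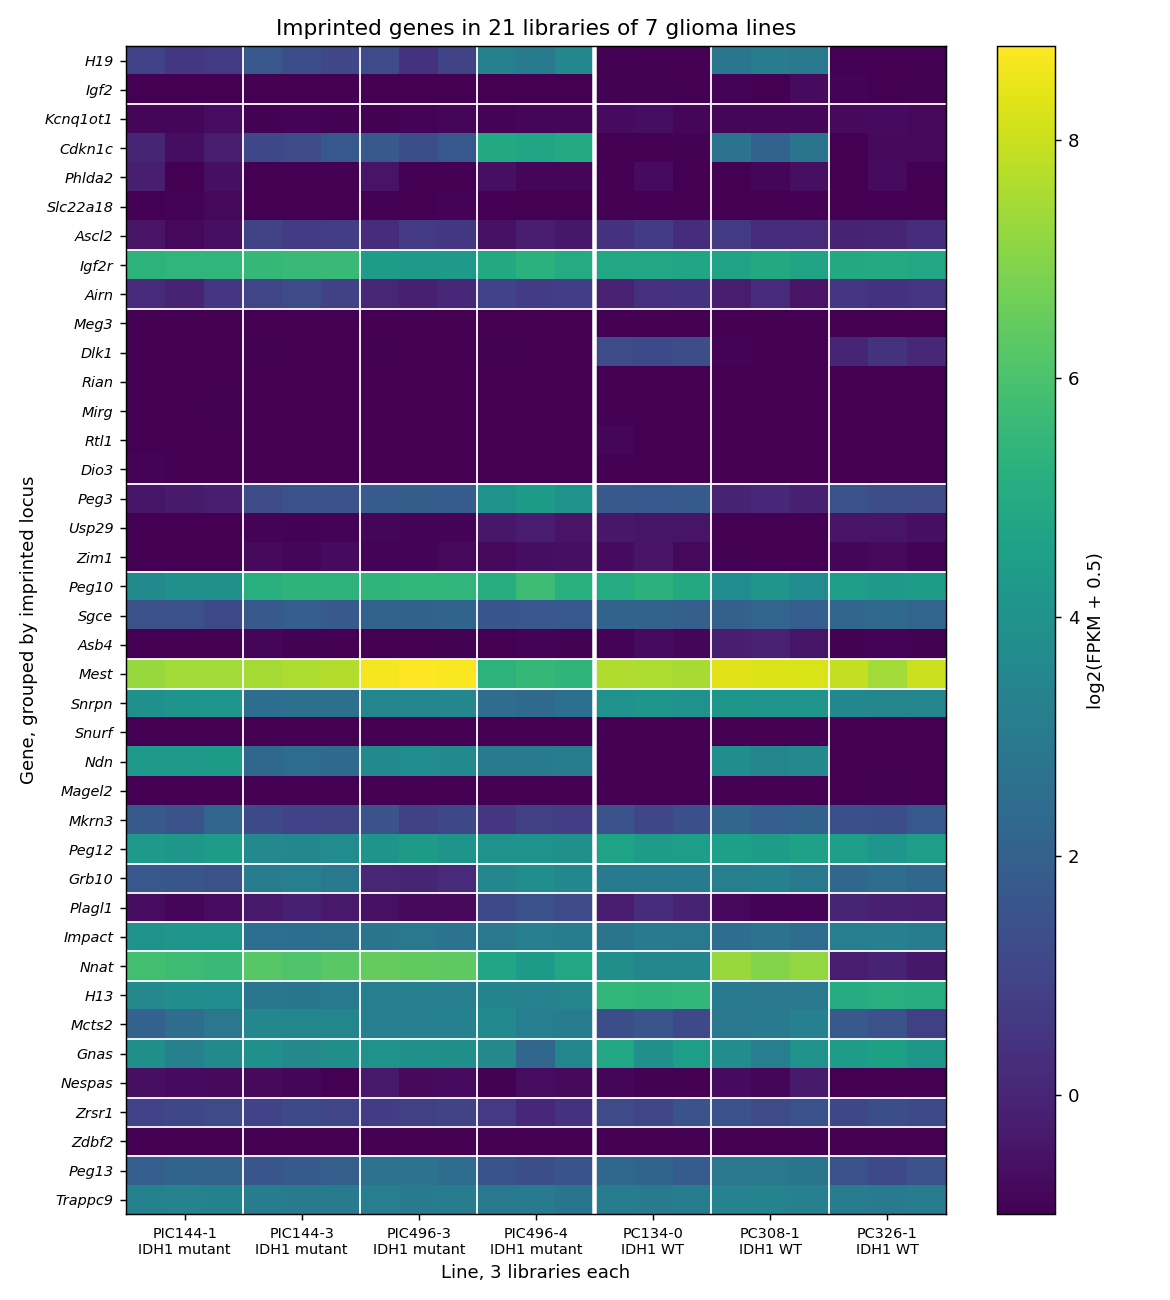
Level of the 40 imprinted genes (rows, grouped by locus) in 21 libraries (columns, 3 per line, IDH1 mutant lines left and IDH1 WT lines right), as log2(FPKM + 0.5) on the colour scale. Libraries of a line are alike, while H19, Cdkn1c, Ndn and Nnat range between absent or nearly absent and clearly expressed across lines.

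Promoter windows are shown for 4 genes that ranged by more than 2 on the log2(FPKM + 0.5) scale between lines. The windows below come from RefSeq (GRCm38.p6) and run 250 bases before to 50 bases after an annotated start, 5′ to 3′ along the gene's strand. They are shown for Ndn, which had no fragment in 2 lines, for Nnat, which had the widest range, and for the nested pair Mcts2 and H13, both expressed in every line, whose levels ran in opposite directions. Capitals mark TGCCGC or its reverse complement GCGGCA, the letters that ZFP57 binds when methylated. The windows lie at chr7:62348027-62348326 (Ndn), chr2:157559828-157560127 (Nnat), chr2:152686898-152687197 (Mcts2) and chr2:152669211-152669510 (H13), all on the plus strand. The RefSeq starts of Ndn and Mcts2 lie inside the genes as placed in the deposited data, which begin at 62346569 (Ndn) and 152687035 (Mcts2). The Ndn window thus lies wholly within the gene as counted there.
Ndn: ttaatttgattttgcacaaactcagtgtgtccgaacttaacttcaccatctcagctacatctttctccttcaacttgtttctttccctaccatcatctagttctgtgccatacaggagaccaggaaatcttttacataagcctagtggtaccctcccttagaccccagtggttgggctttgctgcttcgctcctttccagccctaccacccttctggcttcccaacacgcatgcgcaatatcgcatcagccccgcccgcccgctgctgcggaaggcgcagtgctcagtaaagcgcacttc
Nnat: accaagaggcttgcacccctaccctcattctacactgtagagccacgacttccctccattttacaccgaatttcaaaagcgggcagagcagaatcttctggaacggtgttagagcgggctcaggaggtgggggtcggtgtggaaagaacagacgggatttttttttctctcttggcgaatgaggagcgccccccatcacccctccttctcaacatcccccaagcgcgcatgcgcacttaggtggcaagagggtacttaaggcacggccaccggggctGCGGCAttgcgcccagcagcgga
Mcts2: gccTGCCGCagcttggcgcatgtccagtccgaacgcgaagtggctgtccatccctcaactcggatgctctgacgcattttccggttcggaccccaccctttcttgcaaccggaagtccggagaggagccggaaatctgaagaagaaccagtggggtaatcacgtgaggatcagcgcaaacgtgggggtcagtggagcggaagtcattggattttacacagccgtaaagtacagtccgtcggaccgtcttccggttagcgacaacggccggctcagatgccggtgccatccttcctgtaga
H13: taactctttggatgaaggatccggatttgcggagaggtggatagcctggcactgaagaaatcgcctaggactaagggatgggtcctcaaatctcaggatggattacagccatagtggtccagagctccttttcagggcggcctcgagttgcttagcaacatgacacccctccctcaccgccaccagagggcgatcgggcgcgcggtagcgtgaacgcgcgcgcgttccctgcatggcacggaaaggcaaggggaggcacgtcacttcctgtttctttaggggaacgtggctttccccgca

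Mcts2 and Nnat each hold the hexamer 1 time, and the Ndn and H13 windows do not hold these letters. The counts of CpG dinucleotides were 25 in the Mcts2 window, 21 in the H13 window, 17 in the Nnat window and 11 in the Ndn window. Windows were used for 31 of the 40 symbols. Member windows on chromosome 18, where Impact lies, were left out, while the set of all genes was not cut in this way. The hexamer, searched on both strands, stood in a window of 11 of these 31 genes (35.48%), against 3527 of 27025 genes with a window (13.05%). By window, it stood in 12 of 46 (26.09%), with a median of 13 CpG per window, against 3813 of 32851 windows (11.61%), with a median of 7 CpG. Snrpn and Snurf share 1 identical window and count as 2 genes here, and 2 overlapping Mest windows count as 2 windows. A match is a description of the letters and not a bound or methylated site.

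At the H19 and Igf2 cluster on chromosome 7, H19 was expressed in all 4 IDH1 mutant lines and in 1 IDH1 WT line, while Igf2 was nearly absent everywhere. H19 is a maternally expressed noncoding RNA (142575529 to 142578143, minus strand, GRCm38). Its levels in FPKM were 1.47, 1.01 and 1.10 in PIC144-1, 2.63, 2.06 and 1.61 in PIC144-3, 1.94, 0.853 and 1.495 in PIC496-3, and 9.45, 7.92 and 11.3 in PIC496-4. The IDH1 WT levels of H19 were 0.0240, 0 and 0 FPKM in PC134-0, 6.70, 8.03 and 7.30 FPKM in PC308-1, and 0, 0 and 0 FPKM in PC326-1. PC134-0 thus gave 1 fragment and PC326-1 gave none, so the mean of PIC496-4 was at least 385-fold that of PC326-1, taking 3 fragments over the line as the limit that a count of 0 allows. The genotypes overlapped, because PC308-1 lay above 3 of the 4 IDH1 mutant lines. Igf2, a paternally expressed growth factor, gave 24 fragments in all 21 libraries. All 4 IDH1 mutant lines were at 0 FPKM of Igf2, against 0.0174 FPKM in PC134-0, 0.0460 FPKM in PC308-1 and 0.0180 FPKM in PC326-1. A line at 0 allows up to 0.00938 to 0.0104 FPKM of Igf2, and no line gave more than 14 fragments.

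In the neighbouring Kcnq1ot1 cluster, Cdkn1c, which encodes the cyclin-dependent kinase inhibitor p57, had the second widest range of the tested members. Its levels in FPKM were 0.503, 0.141 and 0.363 in PIC144-1, 1.70, 1.93 and 2.76 in PIC144-3, 2.80, 2.06 and 2.71 in PIC496-3, and 29.9, 26.7 and 31.4 in PIC496-4. The IDH1 WT lines had Cdkn1c at 0, 0 and 0.0266 FPKM in PC134-0, 6.12, 3.71 and 6.31 FPKM in PC308-1, and 0, 0.0868 and 0.0940 FPKM in PC326-1. PIC496-4 lay above all other libraries, and PC134-0 and PC326-1 gave 1 and 6 fragments in all. The 2 lines without H19 were thus also the 2 lowest for Cdkn1c. Kcnq1ot1, the antisense RNA that silences this cluster on the paternal copy, was thinly covered, with 2156 fragments in all over a gene of 93092 bases. Its line means were 0.0882 FPKM in PIC144-1, 0.0306 FPKM in PIC144-3, 0.0381 FPKM in PIC496-3 and 0.0436 FPKM in PIC496-4, against 0.106 FPKM in PC134-0, 0.0546 FPKM in PC308-1 and 0.0935 FPKM in PC326-1. Across the 7 line means Kcnq1ot1 and Cdkn1c had a Pearson r of -0.756 on the log2(FPKM + 0.5) scale, a description in which Kcnq1ot1 spans only 0.191. Ascl2, a transcription factor of the trophoblast, was at 0.149 to 1.30 FPKM in IDH1 mutant lines and 0.555 to 0.877 FPKM in IDH1 WT lines, and Phlda2 and Slc22a18 gave 27 and 4 fragments in all.

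At the Snrpn cluster on chromosome 7, Ndn was off in the same 2 IDH1 WT lines, while Snrpn, Mkrn3 and Peg12 of the cluster were expressed in all lines. Ndn encodes necdin, a MAGE family protein that restrains cell growth in neurons and neural progenitors (62346569 to 62350262, plus strand). Its levels in FPKM were 18.6, 18.5 and 19.6 in PIC144-1, 4.40, 5.02 and 4.71 in PIC144-3, 12.1, 13.2 and 11.9 in PIC496-3, and 7.79, 7.66 and 8.12 in PIC496-4. Among IDH1 WT lines Ndn was at 13.4, 10.4 and 11.5 FPKM in PC308-1, while all 3 libraries of PC134-0 and all 3 of PC326-1 were at 0. The mean of PIC144-1 was at least 1142-fold that of PC326-1, by the limit of 3 fragments over the line, 0.0165 FPKM. Snrpn, which encodes a spliceosomal protein, stayed between 5.07 and 17.1 FPKM. Its line means were 15.8 ± 1.20 FPKM in PIC144-1, 5.52 ± 0.190 FPKM in PIC144-3, 10.8 ± 0.302 FPKM in PIC496-3 and 5.07 ± 0.383 FPKM in PIC496-4, against 15.9 ± 0.803 FPKM in PC134-0, 17.1 ± 0.600 FPKM in PC308-1 and 10.9 ± 0.451 FPKM in PC326-1 (SD over 3 libraries). The lines without Ndn were not low in Snrpn, and across the 7 line means the correlation of Snrpn with Ndn was -0.089. Mkrn3, a makorin ring finger gene, had line means of 1.15 to 3.10 FPKM in IDH1 mutant lines and 2.03 to 3.72 FPKM in IDH1 WT lines, and Peg12 had 12.0 to 18.8 FPKM and 20.0 to 22.6 FPKM. Magel2, another MAGE family gene beside Ndn, gave 5 fragments in all.

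Nnat encodes neuronatin, a small membrane proteolipid of developing brain, and spanned the widest range of the tested members. Its levels in FPKM were 55.6, 52.0 and 49.1 in PIC144-1, 75.01, 68.4 and 76.9 in PIC144-3, 88.2, 84.3 and 82.3 in PIC496-3, and 26.4, 19.9 and 27.9 in PIC496-4. Among the IDH1 WT lines Nnat was at 13.7, 10.8 and 11.4 FPKM in PC134-0, 156, 123 and 145 FPKM in PC308-1, and 0.365, 0.484 and 0.279 FPKM in PC326-1. The IDH1 WT lines thus held both the highest and the lowest level, 377-fold apart, with all 4 IDH1 mutant lines between them. Nnat lies in an intron of Blcap on the opposite strand, and the sources used here do not say whether counting used strand. The host gene, looked at because of this overlap, did not share the pattern: Blcap was at 7.62 to 10.3 FPKM in IDH1 mutant lines and 12.2 to 20.7 FPKM in IDH1 WT lines, with 12.2 FPKM in PC308-1 and 18.6 FPKM in PC326-1.

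H13 and Mcts2 ran in opposite directions. H13 encodes signal peptide peptidase, and Mcts2 is a paternally expressed retrogene inside H13 whose transcription is known in mouse to go with early polyadenylation of H13 on the same copy. H13 was at 11.8, 13.3 and 12.6 FPKM in PIC144-1, 6.76, 6.51 and 7.22 FPKM in PIC144-3, 8.77, 9.05 and 8.64 FPKM in PIC496-3, and 10.1, 9.49 and 10.4 FPKM in PIC496-4. For the IDH1 WT lines, H13 was at 44.3, 42.3 and 43.7 FPKM in PC134-0, 7.58, 6.81 and 7.12 FPKM in PC308-1, and 32.9, 35.01 and 34.1 FPKM in PC326-1. PC134-0 and PC326-1 lay above every other library for H13. Mcts2 was at 3.77, 5.19 and 6.89 FPKM in PIC144-1, 11.0, 10.7 and 10.8 FPKM in PIC144-3, 8.86, 9.09 and 9.35 FPKM in PIC496-3, and 12.2, 8.78 and 8.27 FPKM in PIC496-4. IDH1 WT levels of Mcts2 were 2.08, 2.49 and 1.72 FPKM in PC134-0, 6.999, 7.58 and 9.01 FPKM in PC308-1, and 2.79, 2.20 and 1.33 FPKM in PC326-1. For Mcts2 the same 2 lines lay below every other library. The genes overlap on the same strand, and Mcts2 is a near copy of Mcts1, so the split of reads between them is uncertain. In all, PC134-0 and PC326-1 were the lowest lines for H19, Cdkn1c, Ndn, Nnat and Mcts2 and the highest for H13, as the plot of 9 genes by library shows. The share of all tested genes with these 2 lines lowest or highest was not computed, so this pattern cannot be set against it. PC134-0 and PC326-1 are also the 2 lines that were most alike across all tested genes. They had the highest sums of neuron markers, 28.2 FPKM in PC134-0 and 29.6 FPKM in PC326-1, while the other 5 lines reached at most 12.7 FPKM. They alone had an endothelial marker at 0.5 FPKM or more, Kdr at 0.628 FPKM in PC134-0 and 0.728 FPKM in PC326-1. The single markers of these lists did not all follow the same lines. Of the other endothelial markers, Cdh5 was highest in PC134-0 and Pecam1 in PIC144-1, while Cldn5 had no fragment in any line. Of the neuron markers, Tubb3 and Syp were highest in PC326-1, Rbfox3 in PIC144-1 and Snap25 in PC308-1. The part of these markers in the shared pattern was not tested.

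**Figure D2:**
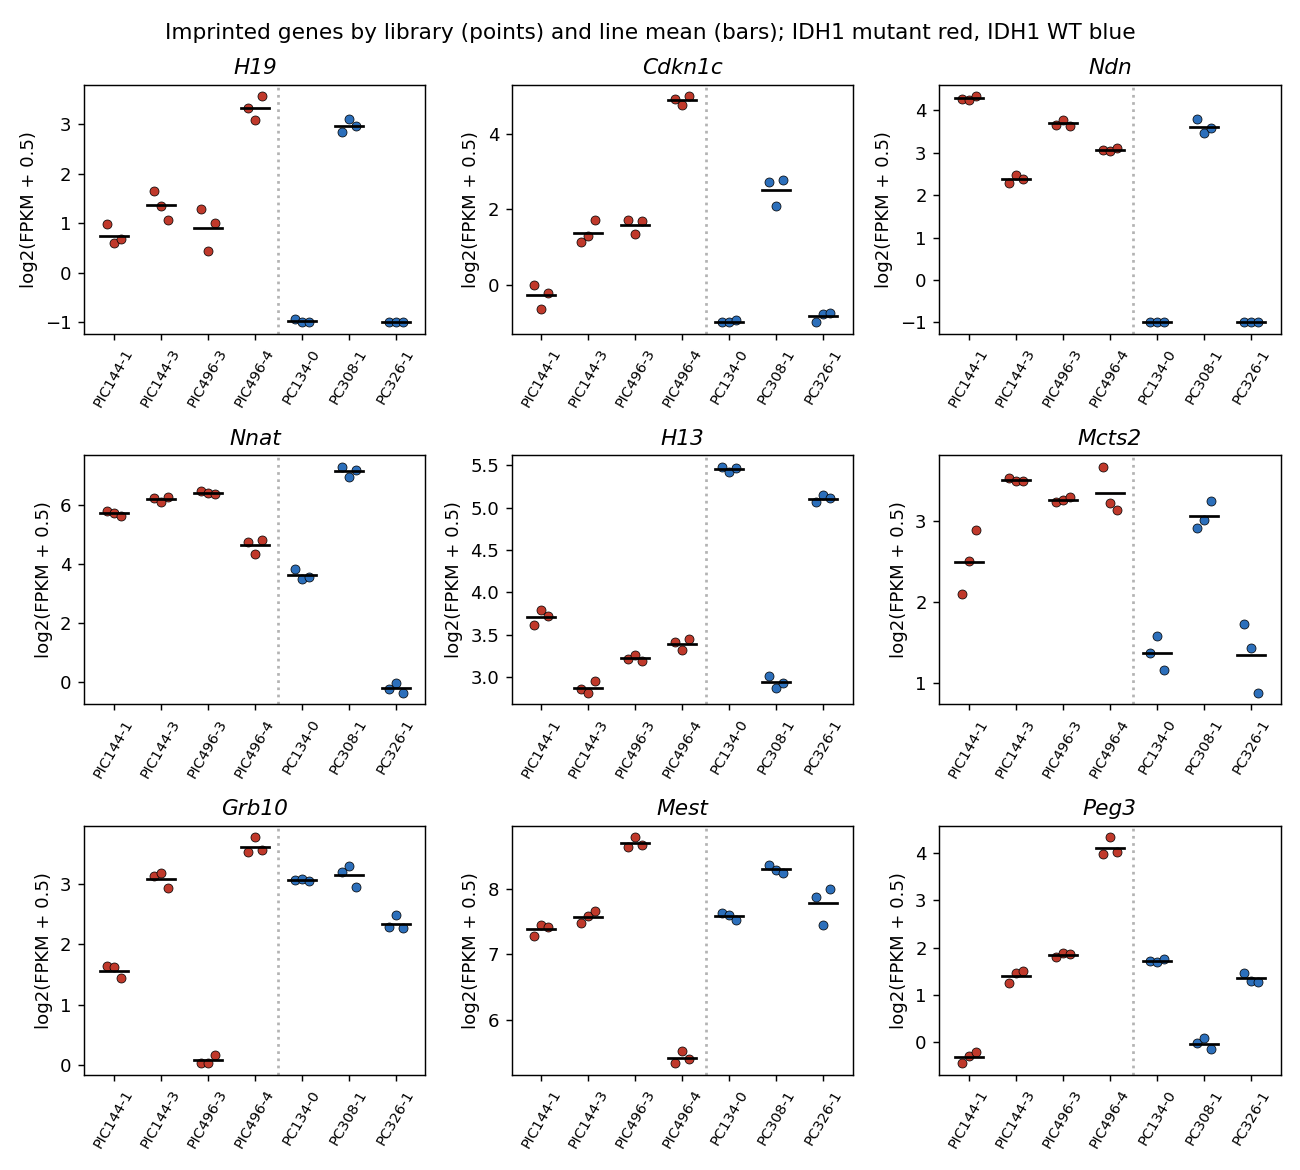
Level of 9 imprinted genes, log2(FPKM + 0.5) on the vertical axis of each panel, in each library (points) and as line mean (bars), with 4 IDH1 mutant lines in red left of the dotted line and 3 IDH1 WT lines in blue right of it. PC134-0 and PC326-1 are lowest for H19, Cdkn1c, Ndn, Nnat and Mcts2 and highest for H13. Peg3, Grb10 and Mest set PIC496-4 apart from PIC496-3, as do H19, Cdkn1c and Nnat.

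In the Meg3 and Dlk1 cluster on chromosome 12 the noncoding RNAs were off in all lines and Dlk1 was on in 2. Dlk1 is a paternally expressed Delta-like membrane protein that keeps precursor cells undifferentiated. Its line means were 0.00355 to 0.0104 FPKM across the IDH1 mutant set, 1 to 3 fragments per line. Among IDH1 WT lines Dlk1 was at 1.94, 1.78 and 2.00 FPKM in PC134-0, 0.0294, 0 and 0 FPKM in PC308-1, and 0.514, 0.855 and 0.565 FPKM in PC326-1. Dlk1 did not pass the filter and was not tested. Meg3 gave 1 fragment in all 21 libraries, Rian 5, Mirg 3, Rtl1 7 and Dio3 1. The lines with Dlk1 are those without Ndn and nearly without H19 and Cdkn1c.

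Peg3, Grb10 and Mest had their extremes within the IDH1 mutant lines, with PIC496-4 at 1 end for each. Peg3, a paternally expressed zinc finger gene, was at 0.235, 0.320 and 0.375 FPKM in PIC144-1, 1.88, 2.26 and 2.33 FPKM in PIC144-3, 3.01, 3.22 and 3.12 FPKM in PIC496-3, and 15.3, 19.6 and 15.8 FPKM in PIC496-4. IDH1 WT lines had Peg3 at 2.80, 2.76 and 2.88 FPKM in PC134-0, 0.487, 0.564 and 0.404 FPKM in PC308-1, and 2.28, 1.97 and 1.92 FPKM in PC326-1. PIC496-4 was highest and PIC144-1 lowest, 54.5-fold apart, and the order of Peg3 across the IDH1 WT lines was not that of H19 or Ndn. The cluster partners Usp29 and Zim1 were sparse, with 768 and 199 fragments in all. Across the 7 line means Peg3 had a Pearson r of 0.742 with Usp29 and 0.821 with Zim1, as a description. The partners spanned only 0.649 and 0.341 on the log2(FPKM + 0.5) scale. Usp29 was at 0.286 FPKM in PIC496-4 and at 0.00438 to 0.0372 FPKM in the other IDH1 mutant lines, against 0.249 FPKM in PC134-0, 0.00102 FPKM in PC308-1 and 0.215 FPKM in PC326-1. PC134-0 and PC326-1 were thus near PIC496-4 for Usp29 but far below it for Peg3.

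Grb10 encodes an adaptor that inhibits insulin and IGF receptor signalling. Its levels in FPKM were 2.63, 2.58 and 2.20 in PIC144-1, 8.31, 8.60 and 7.13 in PIC144-3, 0.524, 0.514 and 0.614 in PIC496-3, and 11.1, 13.3 and 11.4 in PIC496-4. IDH1 WT lines had Grb10 at 7.87, 7.96 and 7.78 FPKM in PC134-0, 8.71, 9.41 and 7.25 FPKM in PC308-1, and 4.38, 5.09 and 4.32 FPKM in PC326-1. The 2 lines that share the number 496 were the highest and the lowest of all 7, 21.6-fold apart. Mest, which encodes a hydrolase-fold protein and is paternally expressed, was at 155, 173 and 170.1 FPKM in PIC144-1, 177, 192 and 202 FPKM in PIC144-3, 399, 441 and 408 FPKM in PIC496-3, and 39.7, 45.4 and 41.9 FPKM in PIC496-4. In the IDH1 WT lines Mest was at 198, 193 and 182 FPKM in PC134-0, 328, 312 and 302 FPKM in PC308-1, and 235, 174 and 256 FPKM in PC326-1. For Mest the order of the same 2 lines was reversed, with PIC496-3 highest and PIC496-4 lowest, 9.82-fold apart.

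Plagl1, a paternally expressed zinc finger gene that in mouse is known to activate other imprinted genes, H19 and Cdkn1c among them, was also highest in PIC496-4. Its levels in FPKM were 0.123, 0.0590 and 0.118 in PIC144-1, 0.297, 0.397 and 0.291 in PIC144-3, 0.184, 0.0940 and 0.0941 in PIC496-3, and 1.80, 2.21 and 1.87 in PIC496-4. IDH1 WT levels of Plagl1 were 0.340, 0.670 and 0.485 FPKM in PC134-0, 0.0852, 0.0302 and 0.0290 FPKM in PC308-1, and 0.512, 0.407 and 0.392 FPKM in PC326-1. PC308-1, which had the second highest means of H19 and Cdkn1c, was the lowest line for Plagl1. Plagl1 did not pass the filter and was not tested, and its part in the levels of H19 and Cdkn1c was not tested either.

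Peg10, a retrotransposon-derived gene, was abundant in all lines. Its line means were 13.7 ± 1.40 FPKM in PIC144-1, 38.6 ± 3.21 FPKM in PIC144-3, 42.8 ± 1.18 FPKM in PIC496-3 and 40.6 ± 9.27 FPKM in PIC496-4, against 33.9 ± 4.37 FPKM in PC134-0, 14.3 ± 2.22 FPKM in PC308-1 and 20.6 ± 1.34 FPKM in PC326-1 (SD over 3 libraries). PIC144-1 and PC308-1, 1 line of each genotype, were the lowest. Sgce, its head-to-head neighbour that encodes epsilon-sarcoglycan, had line means of 2.06 to 3.79 FPKM in IDH1 mutant lines and 3.64 to 4.32 FPKM in IDH1 WT lines, and its correlation with Peg10 across the line means was 0.185. Igf2r, the maternally expressed receptor that clears IGF2, was at 19.4 to 47.2 FPKM in IDH1 mutant lines and 26.8 to 29.9 FPKM in IDH1 WT lines. Airn, the antisense RNA that overlaps Igf2r and silences it on the paternal copy in embryonic tissues, was at 0.503 to 1.62 FPKM and 0.416 to 0.924 FPKM, with a correlation of 0.706 across the line means. Because the genes overlap on opposite strands, their reads cannot be told apart if strand was not used in counting. Gnas, which encodes the stimulatory G protein alpha subunit, was at 8.87 to 14.8 FPKM in IDH1 mutant lines and 12.4 to 21.3 FPKM in IDH1 WT lines. Its libraries varied within lines, with 11.8, 4.20 and 10.6 FPKM in PIC496-4. Its antisense RNA Nespas gave 98 fragments in all, Asb4 of the Peg10 cluster 97 and Zdbf2 6. Trappc9 had the narrowest range of the tested members, at 7.07 to 9.37 FPKM in IDH1 mutant lines and 7.94 to 9.51 FPKM in IDH1 WT lines.

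Between the genotypes, no imprinted gene passed the test. With limma on line means of log2(FPKM + 0.5), 0 of the 22 tested members had an adjusted p under 0.05, while 16 of 13379 genes did (0.120%), 3 of them higher and 13 lower in IDH1 mutant lines. With limma voom on the recovered fragments the count of members was again 0, and the count over all genes fell from 16 to 0. The difference, IDH1 mutant minus IDH1 WT, was above 0 for 10 members and below 0 for 12, with a median of -0.09 on the log2 scale, against 0.01 over all tested genes. An unadjusted p under 0.05 was reached by 3 of the 22 members, Ndn, Peg12 and Mcts2, and by 1712 of all 13379 tested genes (12.8%), so the members' share is near that of all genes. With 35 ways to split 7 lines, the exact permutation p cannot go below 0.0286.

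Ndn averaged 10.96 ± 6.15 FPKM in IDH1 mutant lines (SD, n = 4), against 3.93 ± 6.81 FPKM in IDH1 WT lines (SD, n = 3), and PC308-1 lay within the IDH1 mutant range. Its difference was 2.81 (SE 1.11, limma adjusted p = 0.373, exact two-sided permutation p = 0.114). Because 2 IDH1 WT lines are at 0, the fitted difference depends on the pseudocount: it was 4.31 with a pseudocount of 0.1 (limma adjusted p = 0.372) and 7.72 with limma voom (adjusted p = 0.342). Without PC308-1, where both remaining IDH1 WT lines are at 0, the fitted difference of Ndn was 4.35 with a limma adjusted p of 0.0457. Mcts2 averaged 8.74 ± 2.41 FPKM in IDH1 mutant lines (SD, n = 4), against 4.02 ± 3.33 FPKM in IDH1 WT lines (SD, n = 3), a difference of 1.22 (SE 0.45, limma adjusted p = 0.358, exact two-sided permutation p = 0.0857). Peg12, an intronless gene at the end of the Snrpn cluster, averaged 15.8 ± 2.98 FPKM in IDH1 mutant lines (SD, n = 4), against 21.6 ± 1.43 FPKM in IDH1 WT lines (SD, n = 3). Its difference was -0.46 (SE 0.17, limma adjusted p = 0.366, exact two-sided permutation p = 0.0571), with each IDH1 mutant line below each IDH1 WT line. The line means also did not overlap for Zrsr1, a splicing factor retrogene with the paralog Zrsr2, at 1.35 ± 0.387 FPKM in IDH1 mutant lines (SD, n = 4), against 1.96 ± 0.159 FPKM in IDH1 WT lines (SD, n = 3). So 2 of 22 members did not overlap between genotypes, against 13.3% of all tested genes. The plot of genotype differences shows how wide the intervals are for the genes that vary between lines: for Nnat the difference was 2.22 with a 95% interval of -1.22 to 5.65.

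**Figure D3:**
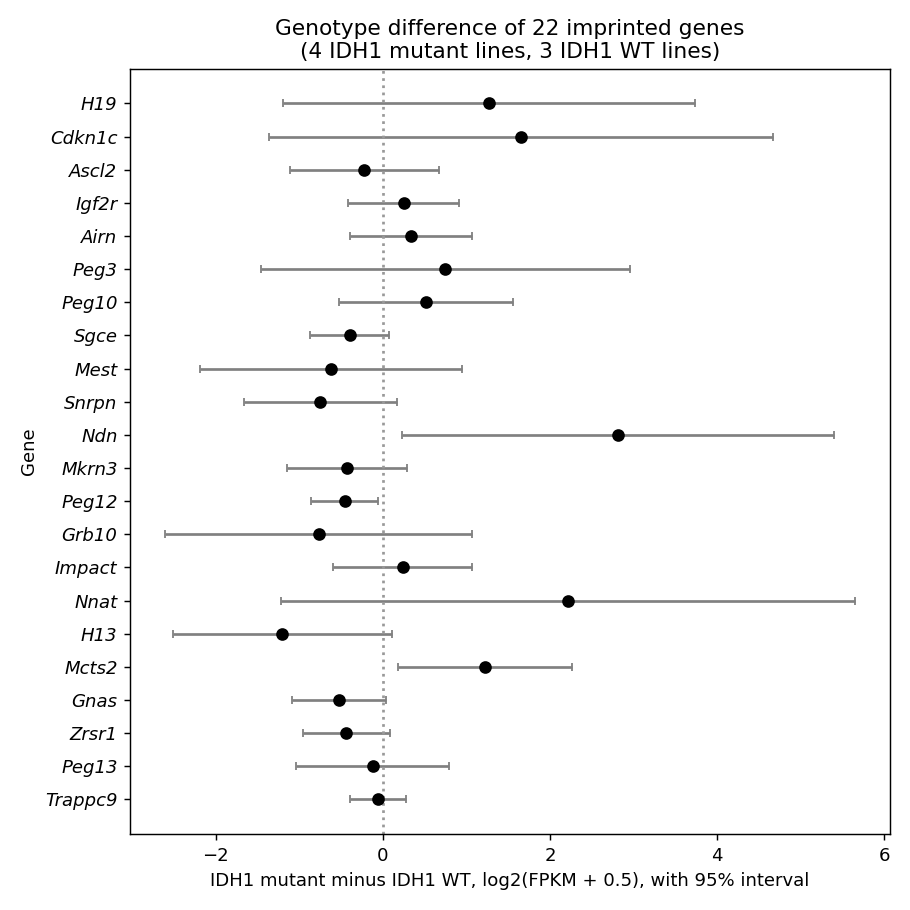
Difference in line-mean log2(FPKM + 0.5), IDH1 mutant minus IDH1 WT (horizontal axis), for the 22 tested imprinted genes (rows), with 95% limma intervals not adjusted for the number of genes (n = 4 and 3 lines). The intervals of Ndn, Peg12 and Mcts2 exclude 0, and no gene passed after adjustment over 13379 genes.

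Between lines, all 22 tested members differed in the limma F test over libraries at an adjusted p under 0.05, as did 89.59% of all tested genes. With a range of line means of at least 2 on the log2(FPKM + 0.5) scale also asked for, 9 of 22 members were called (40.91%), against 11.1% of all tested genes. The 9 were Nnat with a range of 7.34, Cdkn1c with 5.87, Ndn with 5.28, Peg3 with 4.42, H19 with 4.32, Grb10 with 3.56, Mest with 3.28, H13 with 2.58 and Mcts2 with 2.16. The median range was 1.56 over the tested members and 0.88 over all tested genes. The members and lists were chosen with earlier results of these data known, so the shares here and below are descriptions. The shares were not matched for expression level. Just below the limit of 2 came Snrpn with 1.66 and Peg10 with 1.61. These p-values measure the spread between libraries of a line. The plot of ranges places the members along the distribution of all genes.

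**Figure D4:**
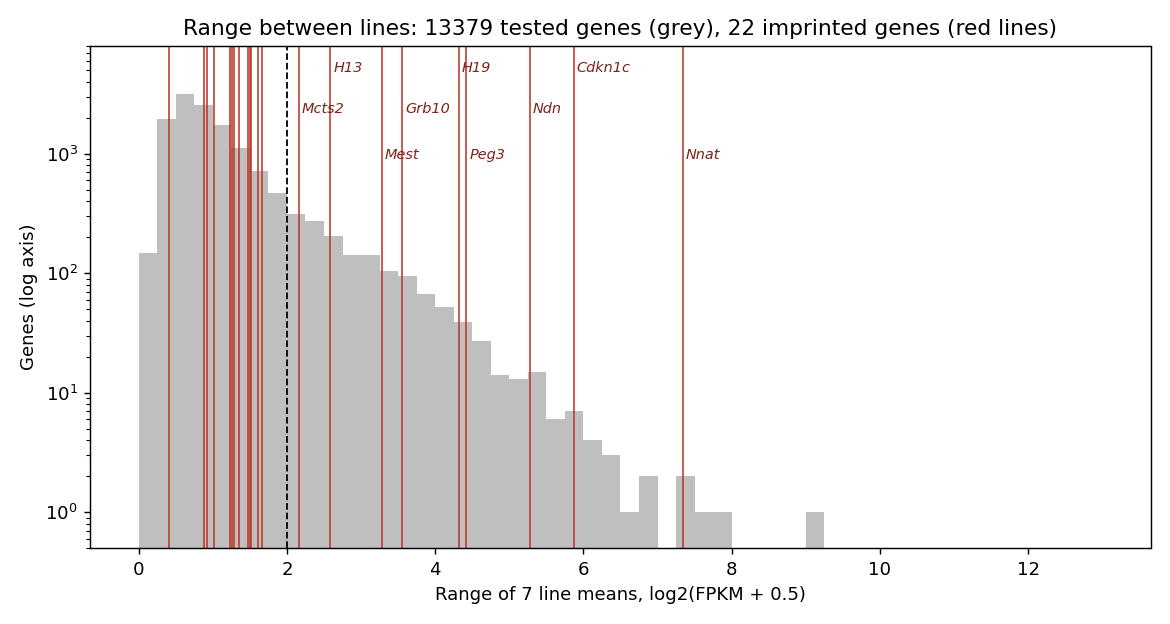
Number of tested genes (vertical log axis) by range of the 7 line means in log2(FPKM + 0.5) (horizontal axis), with all 13379 tested genes in grey and each of the 22 tested imprinted genes as a red line. The 9 named genes lie right of the dashed line at 2, with Nnat at 7.34.

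The lines numbered 144, and likewise those numbered 496, differed from each other too. For PIC144-1 minus PIC144-3, 9 of 22 members passed an adjusted p under 0.05 and a difference of at least 1 on the log2(FPKM + 0.5) scale, against 10.6% of all tested genes. In PIC144-1, 3 members were higher than in PIC144-3: Ndn by 1.90 (SE 0.08, limma adjusted p = 2.57e-13), Impact by 1.51 and Snrpn by 1.44. Impact encodes a regulator of the translation kinase GCN2. The other 6 were lower in PIC144-1: Peg3 with a difference of -1.71 (SE 0.10, limma adjusted p = 8.11e-11), Cdkn1c with -1.66, Grb10 with -1.52, Ascl2 with -1.48, Peg10 with -1.47 and Mcts2 with -1.01. PIC144-1 is also the line with Dcn at 10.3 FPKM. Of the other markers in that list, Lum was also highest in PIC144-1 (0.0819 FPKM). Col1a1 (1.63 FPKM), Col1a2 (0.0328 FPKM) and Pdgfrb (0.445 FPKM) were highest in PIC496-4. The part of Dcn in these differences was not tested.

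For PIC496-4 minus PIC496-3, 8 of 22 members were called, against 9.95% of all tested genes. In PIC496-4, 4 members were higher than in PIC496-3: Grb10 by 3.56 (SE 0.10, limma adjusted p = 1.02e-15), Cdkn1c by 3.31, H19 by 2.41 and Peg3 by 2.26. The other 4 were lower in PIC496-4: Mest with a difference of -3.28 (SE 0.10, limma adjusted p = 6.14e-15), Nnat with -1.77, Peg13 with -1.14 and Snrpn with -1.02. Peg13 is a noncoding RNA inside Trappc9 on the same strand, so its reads may be shared with that gene. PIC496-4 also had the lower sum of neural stem and glioma markers, 1093 FPKM, against 2112 FPKM in PIC496-3, and the part of this in the differences was not tested. Peg3, Cdkn1c, Grb10 and Snrpn were called in both pairs, and all 4 with opposite signs, as the plot of both pairs shows. The share of all tested genes called in both pairs was not computed, so this count cannot be set against it. Which line of a pair is subtracted follows no rule of the study, so the signs have no meaning between pairs.

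**Figure D5:**
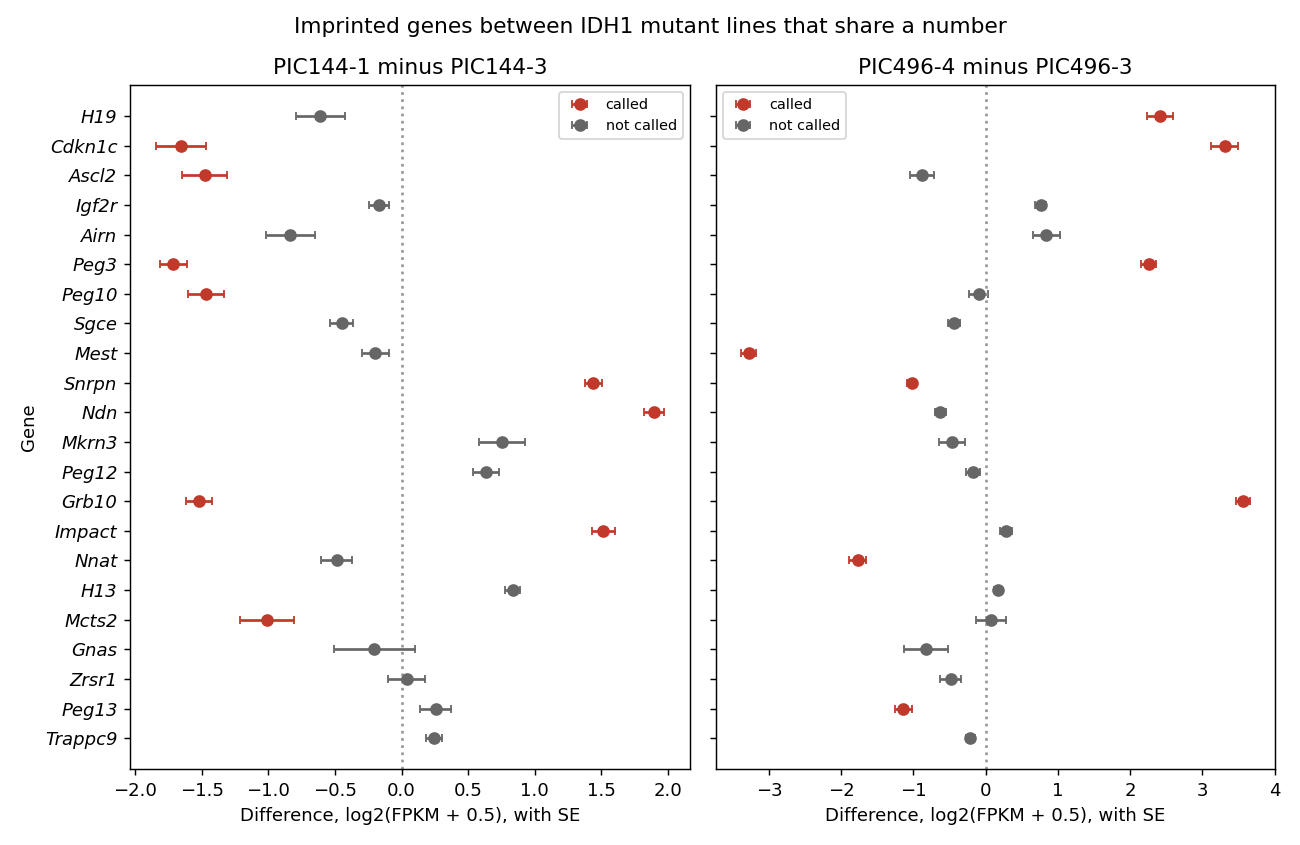
Difference in log2(FPKM + 0.5) with its SE (horizontal axes) for the 22 tested imprinted genes (rows), PIC144-1 minus PIC144-3 left and PIC496-4 minus PIC496-3 right, n = 3 libraries per line. Called genes are red: 3 higher and 6 lower in PIC144-1, and 4 higher and 4 lower in PIC496-4.

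Of 16 listed factors that set or keep imprints, 12 were tested. None ranged by 2 or more on the log2(FPKM + 0.5) scale, so none was called between lines, against 11.1% of all tested genes. None was called between genotypes with limma, and 2 had an unadjusted genotype p under 0.05, as 12.8% of all tested genes did. All 12 passed the F test between lines without the limit on the range, as did 89.59% of all tested genes. Their median range was 0.53, against 0.88 over all tested genes on the log2(FPKM + 0.5) scale, and their median genotype difference was 0.17. The most abundant was Trim28, which encodes the cofactor of ZFP57, at 140.3 ± 31.4 FPKM in IDH1 mutant lines (SD, n = 4), against 87.6 ± 44.3 FPKM in IDH1 WT lines (SD, n = 3). Its lowest lines were PC134-0 with 62.6 FPKM and PC326-1 with 61.4 FPKM, and PC308-1 was at 139 FPKM. Dnmt1 was at 44.5 to 48.9 FPKM in IDH1 mutant lines and 36.8 to 45.5 FPKM in IDH1 WT lines. Zfp57 was low, at 1.30 to 3.06 FPKM and 0.886 to 3.15 FPKM. Dppa3 and the germline factor Ctcfl gave 2 and 3 fragments in all.

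Among 14 genes of the IGF pathway, in which Igf2, Igf2r and Grb10 act, 11 were tested and none was called between genotypes with limma, with 2 at an unadjusted p under 0.05, against 12.8% of all tested genes. Their median genotype difference was -0.35. Between lines 6 of the 11 were called (54.55%), against 11.1% of all tested genes: the RNA-binding genes Igf2bp2 and Igf2bp3 and the binding protein genes Igfbp2, Igfbp3, Igfbp4 and Igfbp7. Igfbp2 was the most abundant, at 708 ± 299 FPKM in IDH1 mutant lines (SD, n = 4), against 1315 ± 523 FPKM in IDH1 WT lines (SD, n = 3). Igf2bp2 was at 1.75 to 6.72 FPKM in IDH1 mutant lines and 0.348 to 1.81 FPKM in IDH1 WT lines. The ligand genes were nearly silent: Igf1 gave 94 fragments in all libraries, beside the 24 of Igf2.

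A further list held 36 genes, among them hosts and neighbours of the clusters, and 22 were tested. Distances from the clusters were not measured, so the list as a whole does not stand for neighbours. None was called between genotypes with limma, 4 had an unadjusted p under 0.05 (12.8% of all tested genes did), and the median difference was 0.00 in IDH1 mutant minus IDH1 WT lines. Between lines 3 of the 22 were called (13.64%), Slc22a3, Slc38a4 and Sfmbt2, a share near the 11.1% of all tested genes. The median range was 0.90 for the tested genes of this list. Slc22a3, a cation transporter beside Igf2r, was at 0.355 to 19.4 FPKM in IDH1 mutant lines and 6.71 to 20.2 FPKM in IDH1 WT lines. The most abundant neighbour was Cd81, a tetraspanin gene at the far end of the Kcnq1ot1 cluster, with 169 ± 62.7 FPKM in IDH1 mutant lines (SD, n = 4), against 194 ± 35.1 FPKM in IDH1 WT lines (SD, n = 3).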

How the data were processed

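The authors deposited FPKM of 54532 genes in 21 libraries. Per the labels' protocols, libraries were strand-specific and sequenced as read pairs. HISAT2 and the mm39 build are named, per the submitters' processing notes. For the read counter, its annotation and whether it used strand, the value is not given in the sources used here. Coordinates in the file match GRCm38: 39 of the 40 members have the same position in GENCODE M21 of that build. FPKM times gene length, divided by a step found for each library (its size behind the FPKM), gave whole fragments, within 0.05, for 100% of 324146 values under 1000 fragments. No libraries were duplicates.

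A line was the mean of its 3 libraries. limma 3.58.1 in R 4.3.3 (eBayes with trend and robust) was run on log2(FPKM + 0.5) of line means for the genotype, and of libraries for lines and pairs, over all 13379 genes with at least 0.5 FPKM in at least 3 lines. P-values were adjusted by Benjamini-Hochberg over these genes. Folds on this scale understate changes of low genes. Single genes also had an exact two-sided permutation test over lines. Limits for a count of 0 are 3 fragments over a line and cover counting error only.

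The members and lists were chosen with earlier results of these data known. Values were given in full for the genes the clusters are named for and for members reaching 1 FPKM with a range of at least 2. Members with an unadjusted genotype p under 0.05 were named, the other members were given by ranges or fragment counts, those called between lines sharing a number by their differences, and of other lists the called genes and the most abundant one. Blcap, Dnmt1, Zfp57, Dppa3, Ctcfl, Igf1, and the further values of Zrsr1, Gnas and Usp29, were given beyond this rule, after their values were seen. Alternatives were pseudocounts of 0.1 and 1, other filters, TPM, median-of-ratios scaling, limma voom, a replicate block, averaged lines and leaving out lines or replicates. Figures were drawn with matplotlib 3.10.9.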

Additional observations from a re-analysis of the deposited data

Results flagged for a closer look

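Among the line means of the 22 tested members in the 4 IDH1 mutant lines, 4 had 1 line far from the others. The gap to the nearest line as a share of the whole range was above Dixon's 95% critical value, which chance alone passes in about 1 in 20 groups. That rate assumes normally distributed values. The gaps were taken on FPKM and not on the log2 scale of the other tests, so the flags hold for the FPKM scale only. The distant line was PIC496-4 for H19 (0.892), Cdkn1c (0.925) and Peg3 (0.831), with levels of 9.55, 29.3 and 16.9 FPKM, above the other 3 lines. It was PIC144-1 for Peg10 (0.857), with 13.7 FPKM, below the other 3 lines. No other line was the distant one for any tested member.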

How the results depend on the processing

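The count of imprinted genes changed by genotype, 0 as reported, was 1 (Ndn, limma adjusted p = 0.0308) in the fit over libraries with the replicate block and the line as random effect, and 0 to 1 when a line or replicate was left out, with Ndn called without PC308-1. It was 0 under the other alternatives. The fit with the replicate block used libraries, with 1 shared correlation between libraries of a line for all genes. That fit therefore does not judge each gene over lines alone. The 16 genes changed over the whole table became 3 without the filter, 8 with a stricter filter of 2 FPKM, 0 with limma voom, 440 with the replicate block, 4 with lines sharing a number averaged, and 0 to 29 when a line or replicate was left out, with 0 without PC134-0 or without PC326-1, 5 without PIC496-4, 9 without PIC144-1, 10 without PIC496-3 and 29 without PC308-1. Chosen after seeing the data, leaving out both PIC496 lines gave 4, averaging PC134-0 and PC326-1 gave 2, and averaging library log2 values gave 15. The cause was not tested. The replicate numbers do not pair libraries: deviations of libraries with the same number had a mean correlation of 0.03 (lowest -0.124), and of those with other numbers -0.015. The differences of Ndn (2.04 to 7.72), Mcts2 (0.94 to 1.78) and Peg12 (-0.54 to -0.33) kept their sign under each alternative. The imprinted genes called numbered 8 to 11 between lines, 8 to 10 between the PIC144 lines and 7 to 10 between the PIC496 lines. Depth limits Igf2, Meg3 and the other genes near 0, where a level below the limit of 3 fragments per line cannot be seen.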
